A study of Mus musculus with 9 samples.

Results

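The receptors through which haematopoietic cytokines act were followed in mouse bone marrow cells transduced with NRASG12D, with the fusion gene NUP98-NSD1, or with both. The 9 genes were taken by name from the gene tables of 9 RNA-seq libraries: Csf1r, Csf2ra, Csf2rb, Csf2rb2, Csf3r, Il3ra, Flt3, Epor and Il6ra. They are 9 of the 55274 gene identifiers listed, and all 9 were among the 13493 genes that reached 1 FPKM (a measure of fragments that takes account of transcript length and library depth) in at least 3 of the 9 libraries. Bone marrow was taken from mice 4 days after 150 mg/kg of 5-fluorouracil, which depletes cycling cells. It was stimulated for 48 hours in medium with 10 ng/mL human interleukin-6 (IL-6), 6 ng/mL murine interleukin-3 (IL-3) and stem cell factor of the mouse at 20 ng/mL, and transduced with retrovirus. The libraries fall into 3 groups of 3: cells carrying NRASG12D, an activated form of the small GTPase NRAS; cells carrying NUP98-NSD1, a fusion found in acute myeloid leukaemia; and cells carrying NUP98-NSD1+NRASG12D. All groups shared the strain background C57BL/6J, the 5-fluorouracil and the medium. Each group was sorted for the fluorescent marker of its own vector: blue for NRASG12D, green for NUP98-NSD1, and both colours for the cells with both. The sorted cells were then expanded in culture before RNA was taken. Effects of the marker and of the number of vectors cannot be told apart from those of the genes carried. Both genes were driven by the strong, constitutive promoter of a murine stem cell virus vector, and no untransduced or empty-vector cells are compared here. The labels do not say whether the 3 libraries of a group came from separate mice or cultures, so p-values measure the spread between these samples, which may be technical.

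Cytokine receptors of this kind set which growth factors a blood cell can respond to. The receptors for IL-3, granulocyte-macrophage colony-stimulating factor (GM-CSF) and IL-5 each join a ligand-specific alpha chain (Il3ra, Csf2ra and Il5ra) to a shared signalling beta chain, encoded by Csf2rb. The mouse has a second beta chain gene, Csf2rb2, whose product pairs with the IL-3 alpha chain alone. Il6ra binds IL-6 and signals through gp130, encoded by Il6st. Csf3r and Epor bind granulocyte colony-stimulating factor (G-CSF) and erythropoietin as homodimers, and all of these receptors signal through JAK kinases and STAT factors. Csf1r and Flt3 are receptor tyrosine kinases of the same class as Kit, the stem cell factor receptor. Csf1r is the receptor of the macrophage lineage, and Flt3 marks early progenitors and dendritic cell precursors.

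The libraries held an estimated 22390000 to 35270000 fragments, worked out from the steps between low FPKM values. Nras itself averaged 394 ± 74.0 FPKM in NRASG12D cells, 49.7 ± 1.84 in NUP98-NSD1 cells and 403 ± 259 in NUP98-NSD1+NRASG12D cells (SD, n = 3 each), so both groups labelled with NRASG12D were above the group without it. Ptprc, the pan-leukocyte marker CD45, lay between 68.3 and 117 FPKM in the 9 libraries. The groups differed widely in markers of cell type. The summed level of 11 mast cell markers ran from 30240 to 32843 FPKM in NRASG12D cells, from 26756 to 31723 in NUP98-NSD1 cells and, with both genes, from 743 to 4326, so the first 2 ranges overlapped. Cpa3, a mast cell protease, is listed at 0 in each NRASG12D library and averaged 13452 FPKM in NUP98-NSD1 cells. Of the 11 markers it alone was at 0 in each NRASG12D library, and whether this reflects absent RNA was not tested. Without Cpa3 the sum ran from 30240 to 32843 in NRASG12D cells and from 13663 to 17345 in NUP98-NSD1 cells, and these ranges did not overlap. Of the 11 mast cell markers, 6 were lower and 3 higher in NUP98-NSD1 than in NRASG12D cells by the test given below. The 3 were Cpa3, Hdc and Mcpt4, named here after their values had been seen. Of all tested genes, 9.98% were lower and 42.2% higher in that comparison. The 11 neutrophil markers ran from 3.09 to 19.5, from 1501 to 5691 and from 9033 to 19307, with 2 of them, Ltf and Camp, at 0 in the 3 NRASG12D libraries. The 9 monocyte and macrophage markers ran from 65.9 to 71.2, from 566 to 1093 and from 2223 to 5259. Of the 10 listed, Irf8 was not among the genes measured. By the test given below, with both genes against NUP98-NSD1 cells, 4 of the 11 neutrophil markers were higher and 7 did not pass. Of the 9 monocyte and macrophage markers 3 were higher, 5 did not pass and 1 was lower, beside 8.61% of all genes passing. The lower one, Cx3cr1 (named after its values were seen), went from a mean of 17.9 FPKM to 12.1 and 3.18. In NUP98-NSD1+NRASG12D replicate 3, S100a8 (8629 FPKM) and S100a9 (4273) were the largest parts of the neutrophil sum. Some of these sums move with most of the receptors described here, and their part in the receptor differences was not tested. In such bulk libraries, fewer cells of a type and less RNA per cell cannot be told apart. Libraries stood apart within their groups. NRASG12D replicate 2 held the highest values of the 3 for Csf1r, Csf3r, Il6ra, Flt3 and the neutrophil sum. That library was also the deepest of the 9, at an estimated 35270000 fragments, and the part of depth in these low values was not tested. NUP98-NSD1 replicate 3 had a neutrophil sum of 1501 against 5255 and 5691, and NUP98-NSD1+NRASG12D replicate 2 a mast cell sum of 4326 against 955 and 743.

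**Figure D1:**
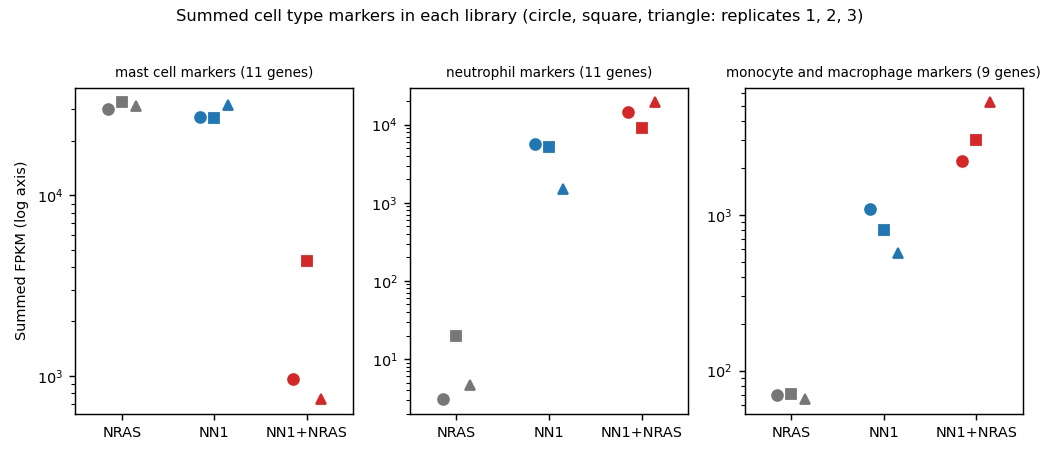
Summed FPKM of 3 lists of cell type markers in each of the 9 libraries, on a log axis; NRAS, NN1 and NN1+NRAS stand for NRASG12D, NUP98-NSD1 and NUP98-NSD1+NRASG12D. The mast cell sum is at most 4326 in NN1+NRAS and overlaps between the other groups, from 26756 to 32843. Without Cpa3, listed at 0 in NRAS, it runs from 13663 to 17345 in NN1 and no longer overlaps with NRAS. The neutrophil and monocyte sums rise from left to right, although not every marker in them does.

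Most receptors fell into a set that was high in NRASG12D cells and a set that was high in the cells with NUP98-NSD1. In NUP98-NSD1 cells against NRASG12D cells, 8 of the 9 receptors passed the test, 5 higher and 3 lower, where 52.1% of all tested genes passed (42.2% higher and 9.98% lower). When cells with NUP98-NSD1+NRASG12D were set against NRASG12D cells, 8 passed, 4 higher and 4 lower, against 38.3% of all genes (24.2% higher and 14.1% lower). When they were set against NUP98-NSD1 cells, 3 passed, 1 higher and 2 lower, against 8.61% of all genes (2.30% higher and 6.31% lower). The test was limma on log2(FPKM + 1), fitted over all 13493 genes and called at a Benjamini-Hochberg adjusted p under 0.05, and every log2 difference given here is on that scale, which understates the change of low genes. The median log2 difference of the 9 receptors was 1.80, 1.36 and -0.44 in these comparisons, beside 0.27, 0.23 and -0.059 over all genes tested. The values of the 3 libraries did not overlap between the groups for 8, 9 and 7 receptors, against 64.2%, 58.6% and 31.4% of all genes. An exact permutation test of a single receptor cannot go below p = 0.1 with 3 libraries against 3. The comparisons share libraries, so they are not independent of each other.

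**Figure D2:**
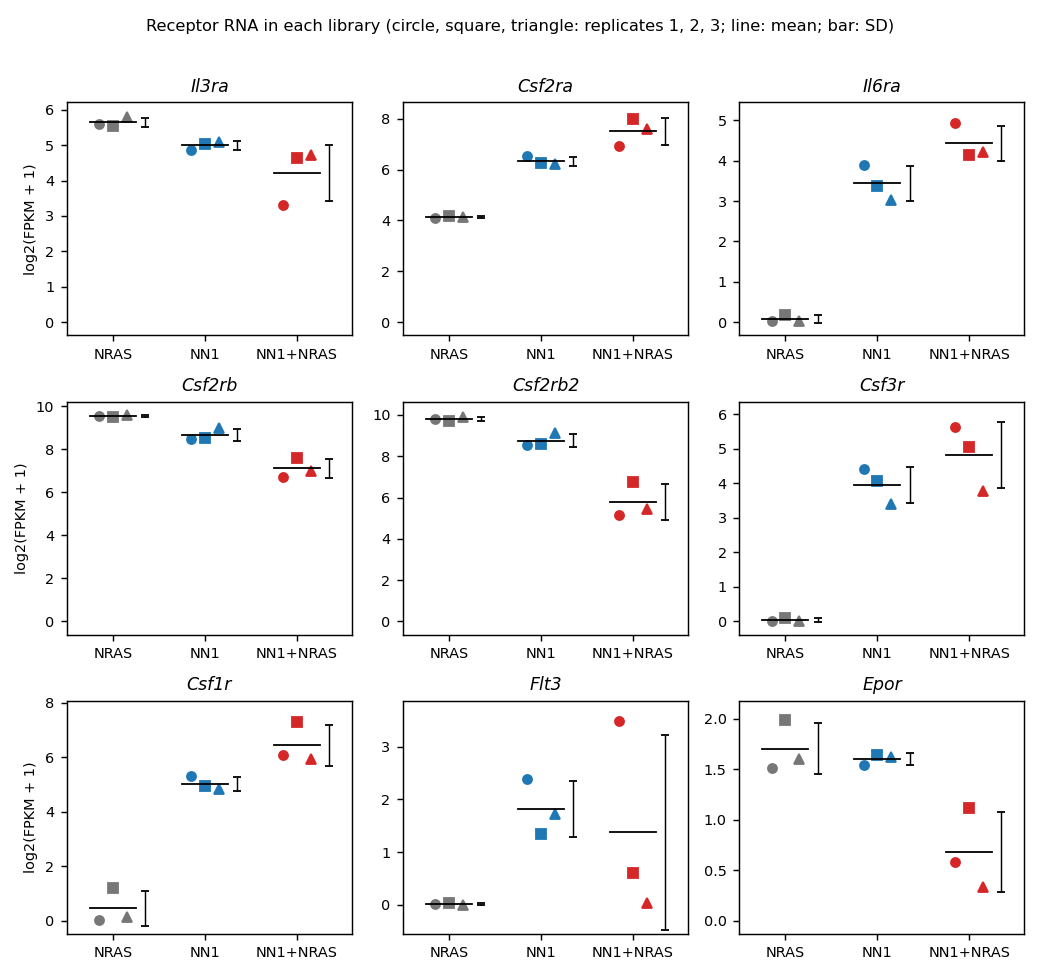
Level of each receptor as log2(FPKM + 1) in the 9 libraries, with the group mean as a line and the SD as a bar; NRAS, NN1 and NN1+NRAS stand for NRASG12D, NUP98-NSD1 and NUP98-NSD1+NRASG12D. Csf2rb, Csf2rb2 and Il3ra step down from left to right, and Csf2ra, Il6ra, Csf3r and Csf1r step up; the 3 Flt3 values of NN1+NRAS are spread from 0.0238 to 10.2 FPKM.

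Per length of transcript, the order of the receptors changed between the groups. In NRASG12D cells it ran from Csf2rb2 (mean of 891 FPKM) and Csf2rb (744) through Il3ra (49.0), Csf2ra (16.6) and Epor (2.28) to Csf1r (0.464), Il6ra (0.0585), Csf3r (0.0263) and Flt3 (0.0109), and among the last 4 each range overlapped with the next. In NUP98-NSD1 cells the beta chain genes were still first, at 437 and 407 FPKM with overlapping ranges. They were followed by Csf2ra (80.1), then Csf1r (31.9) and Il3ra (31.0), whose ranges overlapped, then Csf3r (15.2) and Il6ra (10.2), which also overlapped, and Flt3 (2.69) and Epor (2.03), which overlapped as well. In NUP98-NSD1+NRASG12D cells Csf2ra was first with a mean of 189 FPKM, overlapping in range with Csf2rb (141). Csf1r followed at 95.2 and overlapped in range with both Csf2ra and Csf2rb. Then came Csf2rb2 at 61.1, Csf3r at 31.1, Il6ra at 21.3 and Il3ra at 19.3, and from Csf1r to Il3ra each gene overlapped in range with the next. Flt3 (3.59) and Epor (0.638) came last, and the range of Flt3 reached into those of both its neighbours.

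The shared beta chains were lower with NUP98-NSD1 and lowest with both genes. Csf2rb, the chain common to IL-3, GM-CSF and IL-5, was at 742, 729.5 and 759 FPKM in the NRASG12D libraries, at 349.8, 367 and 502 in the NUP98-NSD1 libraries and at 104, 193 and 127 in the NUP98-NSD1+NRASG12D libraries. No value of one group lay within the range of another. Csf2rb2, the chain used by IL-3 alone, was at 888, 841 and 945 FPKM, then at 378, 380.4 and 552, then at 34.3, 107 and 42.5. Here too the groups did not overlap, and NUP98-NSD1+NRASG12D replicate 2 was the highest of its group for both genes, as it was for the mast cell sum. The same replicate was also the highest of its group for Csf2ra, Csf1r and Epor. Against NRASG12D cells, Csf2rb fell by 0.89 ± 0.14 (SE) in NUP98-NSD1 cells (adjusted p = 0.00303, limma) and fell by 2.44 ± 0.24 with both genes (adjusted p = 0.000516, limma). Csf2rb2 fell by 1.05 ± 0.16 (adjusted p = 0.00249, limma) and fell by 4.02 ± 0.40 (adjusted p = 0.000493, limma), that is to 0.0686 of the NRASG12D mean. With all 9 libraries in one fit, Csf2rb2 no longer passed in NUP98-NSD1 against NRASG12D cells (adjusted p = 0.0666).

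When both genes were set against NUP98-NSD1 alone, Csf2rb fell by 1.55 ± 0.28 (adjusted p = 0.0217, limma) and Csf2rb2 fell by 2.97 ± 0.42 (adjusted p = 0.0110, limma). The Csf2rb call was lost without any one of the 3 NUP98-NSD1 libraries or without NUP98-NSD1+NRASG12D replicate 3 (adjusted p between 0.0635 and 0.0920), and with another scaling of the libraries (adjusted p = 0.0516). The Csf2rb2 call was lost without NUP98-NSD1 replicate 3 alone (adjusted p = 0.0535). With no filter on low genes neither passed, at adjusted p = 0.133 and 0.107.

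The beta chain genes lie on opposite strands of chromosome 15, Csf2rb (ENSMUSG00000071713) at chr15:78325752-78353847 on the plus strand and Csf2rb2 (ENSMUSG00000071714) at chr15:78282507-78305721 on the minus strand (GRCm38). Their coding sequences were identical at 95.2% of 2628 aligned positions, with a longest identical run of 242 bases. Short reads can therefore fit both genes: 12.3% of the 50-base stretches of Csf2rb transcripts and 18.4% of those of Csf2rb2 transcripts were shared with the other gene. Coding exon 3 of 13, 188 bases long in each gene (chr15:78338802-78338989 and chr15:78294342-78294529), is shown because it holds both a long stretch that reads cannot tell apart and a cluster of differences that they can; capitals mark the 22 positions where the genes differ.
Csf2rb: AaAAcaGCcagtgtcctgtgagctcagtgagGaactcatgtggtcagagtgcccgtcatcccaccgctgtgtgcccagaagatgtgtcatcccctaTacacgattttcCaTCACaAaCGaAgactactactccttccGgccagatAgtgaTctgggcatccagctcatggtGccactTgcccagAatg
Csf2rb2: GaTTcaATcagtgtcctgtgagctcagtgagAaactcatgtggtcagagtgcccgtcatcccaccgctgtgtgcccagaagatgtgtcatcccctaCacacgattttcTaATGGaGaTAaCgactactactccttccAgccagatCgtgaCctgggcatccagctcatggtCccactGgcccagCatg

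The ratio of the beta chains moved as well. Csf2rb2 over Csf2rb was 1.20, 1.15 and 1.25 in NRASG12D cells, 1.08, 1.04 and 1.10 in NUP98-NSD1 cells and 0.330, 0.552 and 0.334 in NUP98-NSD1+NRASG12D cells. Csf2rb2 was thus the higher of the pair in the 6 libraries with a single gene and the lower in the 3 with both. The means differed by -1.44 on the log2 scale between the last group and the second (exact permutation p = 0.1, the smallest possible). The ratios in this report were chosen after values had been seen. Summed as 1 gene, the beta chains fell by 0.97 ± 0.15 and fell by 3.09 ± 0.30 against NRASG12D cells, and fell by 2.11 ± 0.33 between the cells with NUP98-NSD1 (adjusted p = 0.00288, 0.000438 and 0.0142, limma).

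The alpha chains went separate ways. Csf2ra, the GM-CSF alpha chain (ENSMUSG00000059326, chr19:61223957-61228429, minus strand), was at 16.1, 17.2 and 16.5 FPKM in NRASG12D cells, at 92.1, 75.5 and 72.8 in NUP98-NSD1 cells and at 123, 254 and 191 in NUP98-NSD1+NRASG12D cells. Every library with NUP98-NSD1 was above every library without it, and the 3 groups did not overlap. Csf2ra was higher by 2.199 ± 0.106 in NUP98-NSD1 cells (4.83-fold, adjusted p = 5.1e-05, limma) and by 3.37 ± 0.26 with both genes (11.4-fold, adjusted p = 0.000201, limma). It was also 2.36-fold higher with both genes than with NUP98-NSD1 alone (log2 difference of 1.17 ± 0.28, adjusted p = 0.0487, limma). That last call was the only receptor call in the upward direction between those groups. Of the 6 fits with a library left out it was kept in 1, the one without NUP98-NSD1+NRASG12D replicate 1, and lost in the others (adjusted p between 0.0743 and 0.174), under both other scalings of the libraries (0.0667 and 0.0860), with a pseudocount of 0.1 in place of 1 (0.0550) and with no filter on low genes (0.223).

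Il3ra, the IL-3 alpha chain (ENSMUSG00000068758, chr14:14346275-14356011, plus strand), was at 47.1, 45.9 and 54.2 FPKM, then at 27.95, 32.0 and 33.0, then at 8.94, 23.7 and 25.2. The groups stepped down without overlap, and NUP98-NSD1+NRASG12D replicate 1 was by far the lowest library. Il3ra fell by 0.65 ± 0.10 in NUP98-NSD1 cells against NRASG12D cells (adjusted p = 0.00293, limma), although not with all 9 libraries in one fit (adjusted p = 0.159). It fell by 1.42 ± 0.37 with both genes (adjusted p = 0.0226, limma). This call was lost without any one of the NRASG12D libraries (adjusted p between 0.0621 and 0.0811) and with no filter on low genes (0.111). Between the cells with NUP98-NSD1 the difference was -0.78 with a 95% interval from -1.66 to 0.10 (adjusted p = 0.261, limma), and -0.33 without NUP98-NSD1+NRASG12D replicate 1. With median-ratio scaling the Il3ra ranges of these groups overlapped (exact permutation p = 0.3). Il5ra, the IL-5 alpha chain, was low throughout, between 1.36 and 1.99 FPKM in the 6 libraries with a single gene and between 0.0537 and 0.622 in the 3 with both, and it fell by 1.21 ± 0.21 with both genes against NRASG12D cells (adjusted p = 0.00447, limma). It is named here after its values had been seen.

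**Figure D3:**
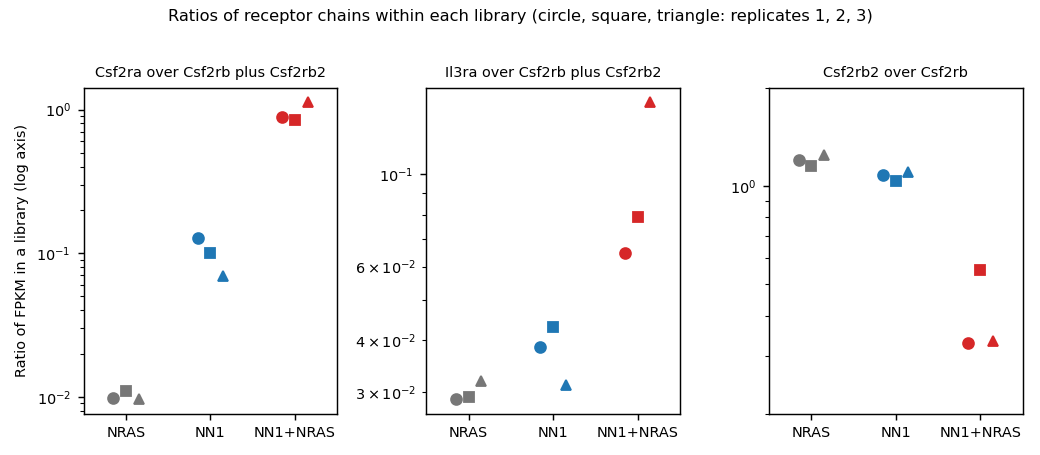
Ratios of FPKM within each library on log axes, for Csf2ra over the summed beta chains, Il3ra over the summed beta chains, and Csf2rb2 over Csf2rb; NRAS, NN1 and NN1+NRAS stand for NRASG12D, NUP98-NSD1 and NUP98-NSD1+NRASG12D. The first ratio rises from about 0.0102 to 0.0989 and 0.953 in the mean, and the last is below 1 in NN1+NRAS alone.

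Set against the summed beta chains of the same library, where a scaling of the library cancels, the GM-CSF alpha chain went from scarce to level. That sum includes Csf2rb2, whose product is not part of the GM-CSF receptor. Csf2rb alone was at 104, 193 and 127 FPKM in the NUP98-NSD1+NRASG12D libraries, and Csf2ra at 123, 254 and 191. Csf2ra was thus above Csf2rb in each of these libraries. Csf2ra over the sum of Csf2rb and Csf2rb2 was 0.00985, 0.0109 and 0.00967 in NRASG12D cells, 0.127, 0.101 and 0.0690 in NUP98-NSD1 cells and 0.888, 0.849 and 1.12 in NUP98-NSD1+NRASG12D cells. Il3ra over the same sum changed less, with means of 0.0300 ± 0.00161, 0.0375 ± 0.00586 and 0.0975 ± 0.0449 (SD, n = 3 each), and the first 2 groups overlapped (exact permutation p = 0.2). Csf2ra over Il3ra was 0.341, 0.375 and 0.304, then 3.30, 2.36 and 2.21, then 13.7, 10.7 and 7.55. The IL-3 alpha chain was thus the more abundant alpha chain RNA in the 3 NRASG12D libraries and the GM-CSF alpha chain in the other 6. Each step of the Csf2ra ratios separated the groups fully (exact permutation p = 0.1, the smallest possible).

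The RefSeq promoters (GRCm38.p6, 250 bases before to 50 after the start) of 7 of the 9 receptors were searched on both strands for AGATAA (bound by GATA factors), GAGGAA (PU.1, encoded by Spi1), TTGCGCAA (C/EBP) and TTCNNNGAA (STAT). GAGGAA was found in 4 of the 7, as in 28.3% of 32851 promoters, AGATAA in 2 (11.2%), TTCNNNGAA in 1 (8.30%) and TTGCGCAA in 0 (0.183%). A match is a description and not a binding site, and the lack of one says only that these letters are not in this window. Printed are a receptor that was higher with NUP98-NSD1 and holds a doubled GAGGAA (Csf2ra, chr19:61228369-61228668, minus strand), one that was lower and holds both GAGGAA and TTCNNNGAA (Csf2rb2, chr15:78305672-78305971, minus strand), the G-CSF receptor with 1 GAGGAA (Csf3r, chr4:126024409-126024708, plus strand) and the erythropoietin receptor with 1 AGATAA (Epor, chr9:21963527-21963826, minus strand). Sequences read 5′ to 3′ along the gene, and capitals mark the matches, in either orientation.
Csf2ra: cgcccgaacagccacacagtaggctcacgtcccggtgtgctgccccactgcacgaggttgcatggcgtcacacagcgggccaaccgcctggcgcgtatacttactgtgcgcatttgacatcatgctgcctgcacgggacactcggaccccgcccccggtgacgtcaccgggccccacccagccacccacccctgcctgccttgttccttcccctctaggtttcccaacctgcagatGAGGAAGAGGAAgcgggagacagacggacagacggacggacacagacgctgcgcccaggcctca
Csf2rb2: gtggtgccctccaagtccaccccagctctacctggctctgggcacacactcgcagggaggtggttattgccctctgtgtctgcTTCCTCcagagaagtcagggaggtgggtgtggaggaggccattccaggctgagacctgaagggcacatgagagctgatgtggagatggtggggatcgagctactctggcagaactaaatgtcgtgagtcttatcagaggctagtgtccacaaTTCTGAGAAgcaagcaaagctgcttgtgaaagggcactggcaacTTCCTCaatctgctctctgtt
Csf3r: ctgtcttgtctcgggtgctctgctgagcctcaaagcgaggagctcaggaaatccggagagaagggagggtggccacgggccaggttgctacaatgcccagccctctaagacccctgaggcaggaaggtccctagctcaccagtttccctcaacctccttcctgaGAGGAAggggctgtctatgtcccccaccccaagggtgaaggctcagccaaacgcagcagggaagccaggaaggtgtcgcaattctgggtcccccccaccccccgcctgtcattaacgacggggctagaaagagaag
Epor: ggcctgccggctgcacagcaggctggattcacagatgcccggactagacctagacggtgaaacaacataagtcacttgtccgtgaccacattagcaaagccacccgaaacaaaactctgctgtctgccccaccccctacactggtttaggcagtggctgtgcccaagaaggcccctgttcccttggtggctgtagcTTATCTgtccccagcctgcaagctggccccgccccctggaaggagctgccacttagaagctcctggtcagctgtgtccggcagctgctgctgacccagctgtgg

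GAGGAA stood in promoters of receptors that moved in opposite directions, among them Csf2ra and Csf2rb2. The promoters of Csf1r and Csf2rb were not searched, and the part of any match in the receptor levels was not tested.

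Il6ra, the IL-6 alpha chain (ENSMUSG00000027947, chr3:89864059-89913196, minus strand), was near 0 in NRASG12D cells at 0.0141, 0.136 and 0.0250 FPKM. The medium of each group held IL-6. It was at 14.0, 9.32 and 7.20 in NUP98-NSD1 cells and at 29.6, 16.8 and 17.6 in NUP98-NSD1+NRASG12D cells. No groups overlapped, and the first NRASG12D value lay below the level that 3 fragments would give in that library. Il6ra was higher by 3.36 ± 0.22 (adjusted p = 0.00016, limma) and by 4.35 ± 0.24 (adjusted p = 7.01e-05, limma) than in NRASG12D cells. Between the cells with NUP98-NSD1 the difference was 1.00 with a 95% interval from 0.28 to 1.72 (adjusted p = 0.0937, limma). With all 9 libraries in one fit it passed (adjusted p = 0.0338).

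Il6st, which encodes the signalling chain gp130, was at 0.646, 1.52 and 0.876 FPKM, then at 11.7, 8.59 and 5.64, then at 15.6, 15.1 and 6.85. It rose with Il6ra in the cells with NUP98-NSD1, by 2.23 ± 0.26 and by 2.69 ± 0.33 against NRASG12D cells (adjusted p = 0.00121 and 0.00118, limma). The ranges of Il6st overlapped between the 2 groups with the fusion gene (difference 0.46 ± 0.37, adjusted p = 0.525, limma). Il6ra over Il6st averaged 0.0467 ± 0.0375, 1.19 ± 0.0964 and 1.86 ± 0.729 (SD, n = 3 each), so in NRASG12D cells Il6ra was low beyond the low level of Il6st itself. The ratio overlapped between the cells with NUP98-NSD1 (exact permutation p = 0.3). An antisense transcript, Gm42809, shares 2.29% of the 50-base stretches of Il6ra.

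Csf3r, the G-CSF receptor of the granulocyte lineage (ENSMUSG00000028859, chr4:126024550-126044440, plus strand), was listed at 0, 0.0788 and 0 FPKM in NRASG12D cells. It was at 20.3, 15.7 and 9.50 in NUP98-NSD1 cells and at 48.4, 32.3 and 12.7 in NUP98-NSD1+NRASG12D cells. The single value above 0 in NRASG12D cells was in replicate 2, the library with the highest neutrophil sum of that group. Csf3r was higher by 3.92 ± 0.25 (adjusted p = 0.000142, limma) and by 4.78 ± 0.44 (adjusted p = 0.000363, limma) than in NRASG12D cells. The cells with NUP98-NSD1 overlapped in their Csf3r levels, with a difference of 0.87 and a 95% interval from -0.30 to 2.03 (adjusted p = 0.356, limma), and from 0.46 to 1.39 when 1 library was left out. Of the 50-base stretches of Csf3r, 8.84% are shared with a processed pseudogene, AC105061.2.

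Csf1r, the macrophage colony-stimulating factor receptor (ENSMUSG00000024621, chr18:61100598-61132149, plus strand), had the largest log2(FPKM + 1) difference from NRASG12D cells of the 9 receptors in both comparisons. That order depends on the scale. As ratios of mean FPKM in NUP98-NSD1 over NRASG12D cells, Csf3r (577), Flt3 (248) and Il6ra (174) were ahead of Csf1r (68.7), each over a mean near 0. It was at 0.0222, 1.28 and 0.0913 FPKM in NRASG12D cells, at 38.4, 29.8 and 27.4 in NUP98-NSD1 cells and at 66.8, 158 and 60.8 in NUP98-NSD1+NRASG12D cells. The groups did not overlap. Replicate 2 of the NRASG12D cells was well above the other two, and replicate 1 lay below the level of 3 fragments in its library. Csf1r was higher by 4.58 ± 0.31 (adjusted p = 0.00018, limma) and by 6.00 ± 0.45 (adjusted p = 0.000183, limma) than in NRASG12D cells. Between the cells with NUP98-NSD1 it differed by 1.42, with a 95% interval from 0.55 to 2.30 (adjusted p = 0.0618, limma). This difference passed without NUP98-NSD1+NRASG12D replicate 1 (adjusted p = 0.0474), without its replicate 2 (0.0375), with array weights (0.0248) and with all 9 libraries in one fit (0.0435). The 3′ end of Csf1r overlaps Hmgxb3 on the opposite strand, with 14.3% of its 50-base stretches shared. Hmgxb3 was between 10.4 and 13.7 FPKM in each library, also where Csf1r was near 0.

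Flt3 (ENSMUSG00000042817, chr5:147330741-147400489, minus strand) was the least even receptor. It was listed at 0.0113, 0.0213 and 0 FPKM in NRASG12D cells, each below the level of 3 fragments in its library. In NUP98-NSD1 cells it was at 4.22, 1.55 and 2.31, and in NUP98-NSD1+NRASG12D cells at 10.2, 0.525 and 0.0238. Replicate 1 of that group was thus the highest of the 9 libraries, while replicate 3 also lay below the level of 3 fragments. Flt3 was higher by 1.80 ± 0.25 in NUP98-NSD1 cells than in NRASG12D cells (adjusted p = 0.00203, limma), although not with all 9 libraries in one fit (0.103). In NUP98-NSD1+NRASG12D cells it differed from NRASG12D cells by 1.36, with a 95% interval from -0.58 to 3.30 (adjusted p = 0.221, limma), and by 0.31 without NUP98-NSD1+NRASG12D replicate 1. It differed from NUP98-NSD1 cells by -0.44, with an interval from -2.48 to 1.59 (adjusted p = 0.842, limma). That last value rested on single libraries: it was -1.50 without NUP98-NSD1+NRASG12D replicate 1 (adjusted p = 0.0410) and 0.23 without its replicate 3.

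Kit, the third tyrosine kinase receptor of this class and a mast cell marker, ran the other way at 982, 1119 and 1049 FPKM, then at 387, 382 and 561, then at 36.0, 70.7 and 8.27. It fell by 1.26 ± 0.16 and fell by 5.17 ± 0.67 against NRASG12D cells (adjusted p = 0.00147 and 0.00142, limma). It fell by 3.91 ± 0.69 between the cells with NUP98-NSD1 (adjusted p = 0.0211, limma), a call lost without any one of the NUP98-NSD1 libraries (up to 0.0912).

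Epor, the erythropoietin receptor (ENSMUSG00000006235, chr9:21958897-21963506, minus strand), was low in each library. It was at 1.85, 2.96 and 2.04 FPKM in NRASG12D cells, at 1.90, 2.11 and 2.08 in NUP98-NSD1 cells and at 0.494, 1.16 and 0.263 in NUP98-NSD1+NRASG12D cells. The first 2 groups overlapped as deposited, although not with median-ratio scaling, and the third lay below both. In NUP98-NSD1 against NRASG12D cells Epor differed by -0.10, with a 95% interval from -0.46 to 0.26 (adjusted p = 0.602, limma), a difference whose sign changed without NRASG12D replicate 2 (0.042) and which passed under quantile normalization (-0.47, adjusted p = 0.0337). It fell by 1.02 ± 0.25 with both genes against NRASG12D cells (adjusted p = 0.0189, limma). This call was lost without NRASG12D replicate 2 (0.0686), without replicate 3 (0.0554) and with no filter on low genes (0.0792). Against NUP98-NSD1 cells the difference was -0.92, with an interval from -1.46 to -0.39 (adjusted p = 0.0517, limma), and it passed without NUP98-NSD1+NRASG12D replicate 2 (0.0167), with array weights (0.00927) and with all 9 libraries in one fit (0.0212). The summed level of 9 erythroid markers ran from 3.00 to 6.81 FPKM in NRASG12D cells, from 46.2 to 109 in NUP98-NSD1 cells and, with both genes, from 6.16 to 67.2. Its ranges in the first 2 groups did not overlap, while those of Epor did.

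**Figure D4:**
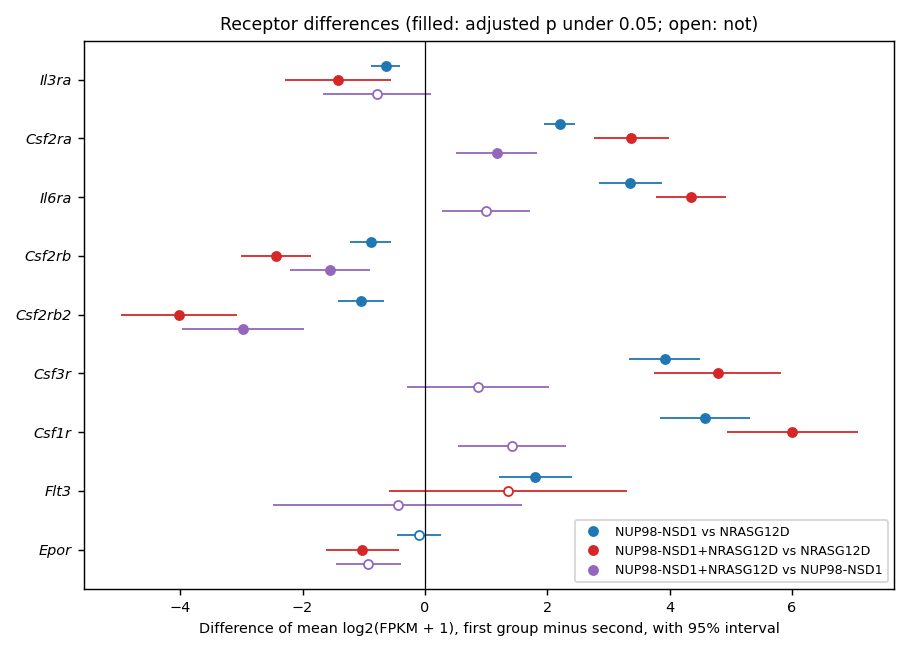
Differences of mean log2(FPKM + 1) for the 9 receptors in the 3 comparisons, with 95% intervals; filled points passed the limma test at an adjusted p under 0.05 and open points did not. Csf1r, Csf3r, Il6ra and Csf2ra lie to the right of 0 in each comparison, Csf2rb, Csf2rb2 and Il3ra to the left, and the open Flt3 intervals are the widest.

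Other cytokine receptor subunits were also counted, and the shares of all tested genes to read these and the following counts against are again 52.1%, 38.3% and 8.61% in the 3 comparisons. Of 32 listed, 28 passed the filter, and 20 of these passed the test in NUP98-NSD1 against NRASG12D cells (11 higher and 9 lower, median -0.022). With both genes against NRASG12D cells 24 passed (11 higher and 13 lower, median -0.38), and against NUP98-NSD1 cells 10 passed (2 higher and 8 lower, median -0.25). With median-ratio scaling the first split was 10 higher and 12 lower and the last 4 and 7. Crlf2, a chain of the receptor for thymic stromal lymphopoietin, was higher in NUP98-NSD1 than in NRASG12D cells as deposited (0.29, adjusted p = 0.0149, limma) but at -0.015 under both other scalings (adjusted p = 0.897 and 0.910, limma). The receptor chains for interferon gamma were among the largest increases: Ifngr2 went from a mean of 3.87 ± 1.06 FPKM in NRASG12D cells to 34.1 ± 13.5 and 82.7 ± 13.4, and Ifngr1 from 16.3 ± 1.67 to 67.9 ± 22.9 and 150.3 ± 42.0 (SD, n = 3 each). Il15ra, which presents IL-15, went from 0.818 ± 0.117 to 7.92 ± 2.36 and 12.5 ± 0.955. Il1rl1, the IL-33 receptor of mast cells, had the largest log2 decrease of the 28 in both comparisons of the cells with both genes, and went from 598 ± 40.9 to 289 ± 36.3 and 17.0 ± 18.9 FPKM. Tgfbr1, a receptor for transforming growth factor beta, went from 173 ± 2.77 to 70.0 ± 19.7 and 14.0 ± 6.62. Il27ra, the IL-27 receptor chain, fell by 2.09 ± 0.32 between the cells with NUP98-NSD1 (adjusted p = 0.0134, limma).

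The RNAs of the ligands were mostly low. Of 13 listed, 5 passed the filter (Csf1, Flt3l, Il6, Lif and Osm), and Epo was listed at 0 in the 9 libraries, Il3 in 8 of them. In NUP98-NSD1 against NRASG12D cells 1 ligand passed, lower (52.1% of all genes passed). With both genes 5 passed against NRASG12D cells (1 higher and 4 lower, median -2.90) and 4 against NUP98-NSD1 cells (each lower, median -1.89). The 1 that was higher, Csf1, did not pass under either other scaling of the libraries. Flt3l, the FLT3 ligand, was at 89.8, 83.2 and 101 FPKM, then at 29.7, 36.1 and 45.8, then at 5.59, 14.8 and 9.15. The library with the lowest Flt3l, NUP98-NSD1+NRASG12D replicate 1, was the one with the highest Flt3. Replicates 2 and 3 of that group, also low in Flt3l, had Flt3 at only 0.525 and 0.0238 FPKM. Il6 was at 35.9, 28.5 and 28.2 FPKM in NRASG12D cells, where Il6ra was near 0, and at 32.6, 35.9 and 36.8 in NUP98-NSD1 cells, but at 0.871, 5.67 and 0.613 with both genes. It fell by 3.54 ± 0.52 and fell by 3.73 ± 0.52 in the latter cells, against NRASG12D and NUP98-NSD1 cells in turn (adjusted p = 0.00229 and 0.0107, limma), the latter call being lost without NUP98-NSD1 replicate 3 (adjusted p = 0.0517). Lif, of the same cytokine family, was likewise lower: it fell by 2.90 ± 0.32 and fell by 3.14 ± 0.32 (adjusted p = 0.000777 and 0.00591, limma). Csf1, the ligand of CSF1R, was at 11.4, 11.1 and 12.4, then at 13.4, 12.4 and 14.4, then at 15.6, 80.5 and 72.1 FPKM, and its call with both genes against NRASG12D cells (adjusted p = 0.0402, limma) was lost without any one library other than NUP98-NSD1+NRASG12D replicate 1.

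Downstream of the receptors stand the JAK kinases and STAT factors. Of 11, 1 passed in NUP98-NSD1 against NRASG12D cells (lower, median of the list -0.048), 6 with both genes against NRASG12D cells (3 higher and 3 lower, median 0.014) and 2 against NUP98-NSD1 cells (both lower, median 0.019), beside 52.1%, 38.3% and 8.61% of all genes. With median-ratio scaling these were 0 higher and 5 lower, 0 and 3, and 0 and 3. Stat4 went from a mean of 40.2 ± 3.02 FPKM to 21.9 ± 3.27 and 7.09 ± 1.14, passing in each comparison. Stat5a, a main factor of the beta chain receptors, was at 29.4, 27.4 and 32.2, then at 28.9, 28.4 and 26.9, then at 17.3, 14.0 and 12.0 FPKM, a difference of -1.003 ± 0.173 between the last group and NRASG12D cells (adjusted p = 0.00462, limma). Stat6 was higher by 0.80 ± 0.17 in the same comparison (adjusted p = 0.0111, limma), a call lost without NRASG12D replicate 1 and under both other scalings of the libraries.

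Of 17 adaptors and regulators tested, 7 passed in NUP98-NSD1 against NRASG12D cells (4 higher and 3 lower, median -0.088), 8 with both genes (4 higher and 4 lower, median -0.022) and 5 against NUP98-NSD1 cells (3 higher and 2 lower, median 0.11), beside the same 52.1%, 38.3% and 8.61% of all genes. With median-ratio scaling the first split was 4 and 8. Cbl, a ubiquitin ligase that ends receptor signalling, went from a mean of 3.43 ± 1.47 FPKM to 8.53 ± 2.10 and 21.3 ± 4.59 (SD, n = 3 each). Pik3r5, a regulatory subunit of phosphoinositide 3-kinase, went from 0.752 ± 0.481 to 5.39 ± 2.21 and 16.1 ± 6.23. Inpp5d, the lipid phosphatase SHIP1, went down from 179 ± 15.0 to 95.7 ± 16.3 and 49.3 ± 14.1.

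Of 15 tested feedback inhibitors and STAT target genes, 10 passed in NUP98-NSD1 against NRASG12D cells (4 higher and 6 lower, median -0.058), 10 with both genes against NRASG12D cells (4 higher and 6 lower, median -0.13) and 3 against NUP98-NSD1 cells (each lower, median -0.37), where the shares of all genes were 52.1%, 38.3% and 8.61%. With median-ratio scaling the first split was 2 and 8. The SOCS genes, which encode inhibitors of JAK signalling, did not move together. Socs3, which acts on gp130 and the G-CSF receptor, was at 9.08, 9.20 and 6.86 FPKM, then at 42.8, 30.04 and 28.05, then at 33.2, 57.2 and 49.7. Socs3 thus rose by 1.87 ± 0.18 and by 2.32 ± 0.23 (adjusted p = 0.000683 and 0.000529, limma), as Il6ra, Il6st and Csf3r did. Socs1 was at 116, 101 and 112 FPKM, then at 72.9, 69.4 and 71.6, then at 9.80, 30.8 and 13.2, and fell by 2.703 ± 0.377 with both genes (adjusted p = 0.00189, limma). Socs2, a target of STAT5, fell by 1.08 ± 0.17 between the cells with NUP98-NSD1 (adjusted p = 0.0135, limma).

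Of 17 transcription factors listed, Irf8 and Zfpm1 were not among the genes measured. Of the 15 analysed, 12 passed in NUP98-NSD1 against NRASG12D cells (9 higher and 3 lower, median 0.82), 13 with both genes against NRASG12D cells (7 higher and 6 lower, median 0.63) and 5 against NUP98-NSD1 cells (1 higher and 4 lower, median -0.56), against 52.1%, 38.3% and 8.61% of all genes. With quantile normalization the first split was 6 and 4, and Cebpb, higher in NUP98-NSD1 than in NRASG12D cells as deposited (0.60, adjusted p = 0.0127, limma), was at -0.035 (adjusted p = 0.875, limma). Crlf2 and Cebpb are named for these changes of sign, after their values had been seen. Cebpa, Cebpd and Cebpe, whose products drive granulocyte genes, were higher with NUP98-NSD1. Cebpe was listed at 0, 0.272 and 0 FPKM in NRASG12D cells and was at 82.7, 64.0 and 15.8 in NUP98-NSD1 cells and at 133, 94.8 and 136 with both genes, and Cebpa was at most 0.107 in the first group and at least 1.34 in the others. Gata1, Gata2 and Tal1, factors shared by the mast, megakaryocyte and erythroid lineages, were low with both genes: Gata2 was at 383, 492 and 450.4 FPKM, then at 304, 349 and 479.9, then at 25.6, 59.5 and 6.47. Gata1 went from 109 ± 6.26 FPKM to 68.5 ± 9.63 and 5.86 ± 5.99, and Tal1 from 120.0 ± 0.191 to 76.1 ± 13.8 and 9.51 ± 7.41 (SD, n = 3 each). With both genes against NRASG12D cells Gata1 fell by 4.40 ± 0.59, Gata2 fell by 4.26 ± 0.68 and Tal1 fell by 3.93 ± 0.67 (adjusted p = 0.00162, 0.00331 and 0.00428, limma).

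Of the list genes with the largest changes, up to 4 a list and comparison, 17 of 18 kept their call whichever library was left out in NUP98-NSD1 against NRASG12D cells and 21 of 24 with both genes against NRASG12D cells. Between the cells with NUP98-NSD1 it held for 4 of 21, Lif, Osm and Stat4 among them, and the calls lost there included Il6, Il1rl1, Tgfbr1, Gata1, Gata2, Tal1, Socs1, Socs2, Stat5a, Cbl, Pik3r5 and Il27ra, each of them lost at least without NUP98-NSD1 replicate 3. The genes in these counts were picked for large differences in the same libraries, which favours keeping a call. The share of all called genes that kept their call was not worked out, so the counts only describe these genes.

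The genes most like each receptor over the 9 libraries were looked up by Pearson's r of log2(FPKM + 1). The 9 points fall into the 3 groups and share their libraries, so r mostly tells that a gene steps between groups in the same way. Csf1r was most like Wfdc17 (0.998), Ctss and Pld4. Csf2ra was most like Cd44 (0.997), Trem2 and Clec4a4, Csf3r like Gpr160 (0.995), Calhm6 and Tgfbi, and Il6ra like Dmkn (0.999), Tifab and Ltb4r1. Of the receptors that stepped down, Csf2rb was most like Tgfbr1 (0.999), Flt3l and Trp53bp2, Csf2rb2 like Cobl (0.998), Avil and Pde1c, and Il3ra like Os9 (0.994), Nagk and Camk1. Epor (Epdr1, 0.987, Zfp809 and Ackr1) and Flt3 (Poll, 0.972, Kmo and Hspa8) had the lowest leading values.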

How the data were processed

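Gene-level FPKM of 9 libraries were used as deposited. Per the study's methods and the submitters' processing notes, the authors aligned paired-end reads of 50 bases to GRCm38.p6 with STAR 2.7.2a and made the FPKM with Cufflinks 2.2.1. How reads that fit several genes were shared, and whether strand was used, is not given in the sources used here. FPKM are scaled to library size and transcript length, so a few very abundant genes lower the rest.

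The 3 groups of 3 follow the labels. The 13493 genes that reached 1 FPKM in 3 or more of 9 libraries were tested on log2(FPKM + 1) with limma 3.58.1 (R 4.3.3, moderated with a trend), each comparison on its own 6 libraries, with p-values adjusted by Benjamini-Hochberg over every gene tested. The procedure was first tested on simulated data. Depth was estimated from the spacing of low FPKM values: 82.4% to 85.8% of these came out as whole fragments within a tolerance of 0.1. For single values an exact permutation test, two-sided, was used. Deposited FPKM were kept as the main scale although scaling by median ratios moved the median log2 difference of all genes from 0.27 to 0.012 and from 0.23 to 0.059 against NRASG12D cells.

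Named were the 9 receptors, up to 4 called genes with the largest differences per pathway list and comparison, Il6st, Kit and the ligands by level, and the 3 genes most like each receptor. Some genes that this rule names are not reported here. Coordinates are those of the tables (start counted from 1), and 50-base stretches were counted in GENCODE M21 transcripts. The receptors and lists were chosen with earlier results of these data known. Alternatives were other pseudocounts, filters, scalings, weights and fits, a replicate block, leaving out each library and, chosen after seeing the data, summing the beta chains.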

Additional observations from a re-analysis of the deposited data

How the results depend on the processing

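Of the single receptor differences under the alternatives, 364 kept direction and side of the threshold, 28 kept direction but no longer passed, 11 newly passed and 2 changed sign. The sign changes were Epor in NUP98-NSD1 against NRASG12D cells (0.042 without NRASG12D replicate 2, range without 1 library -0.19 to 0.042) and Flt3 between the cells with NUP98-NSD1 (0.23 without NUP98-NSD1+NRASG12D replicate 3, range -1.50 to 0.23). In NUP98-NSD1 against NRASG12D cells the 8 receptor calls became 5 with all 9 libraries in one fit, which also took the calls over all genes from 7036 to 3065. In NUP98-NSD1+NRASG12D against NUP98-NSD1 cells the 3 receptor calls became 0 with no filter on low values (1162 calls over all genes became 169), 1 with median-ratio scaling, 6 with all 9 libraries in one fit (2251 over all genes) and 5 with array weights (3500). Leaving out 1 library gave 8 receptor calls in NUP98-NSD1 against NRASG12D cells, 6 to 8 with both genes against NRASG12D cells, and 0 to 5 against NUP98-NSD1 cells, where the calls over all genes ran from 283 to 2509. Over all genes, the 5173 calls with both genes against NRASG12D cells became 3069, 3159 and 2941 without NRASG12D replicates 1, 2 and 3. A fit without a library has fewer samples, and the no-filter fit tests more genes; the cause of the other changes was not tested.

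Scaling moved the split of calls over all genes but the direction of none of the calls of the 9 receptors; of the pathway genes called, Crlf2 and Cebpb changed sign in NUP98-NSD1 against NRASG12D cells, with no call. Against NRASG12D cells, 5689 genes were higher and 1347 lower in NUP98-NSD1 cells as deposited, 3231 and 2950 with median-ratio scaling and 2619 and 3447 with quantile normalization; with both genes the splits were 3266 and 1907, 2773 and 2449, and 2155 and 3064. The receptors without overlap were 8, 9 and 7 of 9 in the 3 comparisons as deposited, where 64.2%, 58.6% and 31.4% of all genes did not overlap. With median-ratio scaling they were 9, 9 and 6, and the share of all genes was not worked out on that scale. There Epor no longer overlapped in NUP98-NSD1 against NRASG12D cells, and Il3ra did between the cells with NUP98-NSD1. Same-numbered libraries did not deviate together (mean correlation of -0.028, 0.016 and 0.0021 in the 3 comparisons), so the numbers were not taken as pairs; with the replicate block 8, 8 and 3 receptors passed. Csf2ra no longer passed under the block between the cells with NUP98-NSD1 (adjusted p = 0.0784), while Il6ra did (0.0453). Without strand and read-sharing settings, reads of Csf2rb and Csf2rb2, and of Csf1r and Hmgxb3, cannot be assigned with certainty, and levels near 3 fragments (Flt3, Csf3r, Il6ra and Csf1r in NRASG12D cells) carry large counting error.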
